A study of Mus musculus with 12 samples.

Results

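The subject is the expression of molecular chaperones and their co-chaperones in CD11b-positive cortical cells of WT and App NL-G-F mice. A gene was taken when its symbol begins with Hspa, Hspb, Hspd, Hspe, Hsph, Hsp90, Dnaja, Dnajb, Dnajc or Bag, or names a subunit of the TRiC complex, Tcp1 or Cct, and when the mouse GRCm38 annotation lists it as protein-coding. Of 55487 genes listed, 89 met that rule, and 79 of them had at least 10 counts in 3 or more of the 12 libraries, the level at which they are reported. The other 10 were Cct6b, Cct8l1, Dnajb3, Dnajb7, Dnajb8, Dnajc22, Dnajc5b, Dnajc5g, Hspb2 and Hspb9, whose highest count in a library was 9. All 79 reported genes entered the tests, which ran on 15425 genes.

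Chaperones bind unfolded stretches of other proteins and let them fold, refold or be passed on for degradation. Hsp70 proteins do so in cycles of ATP hydrolysis, which J-domain proteins (Dnaja, Dnajb and Dnajc) start and exchange factors such as the Hsp110 and Bag proteins end. Hsp90 acts later in folding, small heat shock proteins hold aggregation-prone chains without ATP, Hsp60 with Hsp10 folds proteins inside mitochondria, and the TRiC ring folds actin and tubulin in the cytosol. Protein damage and heat switch on the cytosolic members through the heat shock factor Hsf1, which binds repeats of GAA and TTC in promoters. A load of unfolded protein in the endoplasmic reticulum switches on another set, including Hspa5 (BiP) and Hsp90b1 (Grp94), a chaperone on which Toll-like receptors and integrins depend. Microglia, the macrophages of the brain, make and fold many such surface receptors and take up amyloid.

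The 4 groups were WT mice given vehicle (WT veh), WT mice given rh Bri2 BRICHOS R221E (WT BRICHOS), App NL-G-F mice given vehicle (App veh) and App NL-G-F mice given rh Bri2 BRICHOS R221E (App BRICHOS), with 3 mice in each. App NL-G-F is a knock-in of the mouse App gene with a humanized amyloid β sequence and the Swedish, Iberian and Arctic mutations, on the C57BL/6J background that the WT mice share; the mutant protein is thus made from the gene's own promoter, wherever App is active. Rh Bri2 BRICHOS R221E is the recombinant human chaperone domain of the Bri2 protein with a substitution at residue 221, itself no member of the families described here. All mice were male. From 9 months of age they received 24 doses by the intravenous route over 12 weeks, either PBS as the vehicle or 10 mg/kg of the protein, and were then left untreated for 4 weeks. Cortical tissue of every group was digested with papain at 37 °C for 40 min before the CD11b-positive cells were collected on magnetic beads, a step that is itself warm. Each library is 1 mouse, and p-values measure the spread between these mice.

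The libraries held 12433402 to 17889654 counts, so that 3 counts, taken as the smallest detectable level, correspond to 0.169 to 0.227 CPM, the unit of counts scaled to a common library size. All 6 microglial markers were found in every library, with summed levels of 21850 to 27080 CPM. Markers of other cells were present too. The 6 astrocyte markers summed to 415 to 752 CPM in the WT libraries. They summed to 1377 to 4424 CPM in App veh and 641 to 1851 CPM in App BRICHOS. The summed markers of neurons, border macrophages, mural cells, ependymal cells and lymphocytes were each lower in every App than in every WT library. Single markers did not all follow, as the neuronal Rbfox3, Tubb3 and Gad1 and the lymphocyte Trac and Cd3e overlapped between the strains. The lymphocyte sum was mostly Cd79b. The oligodendrocyte markers, the most abundant of these lists, summed to 9595 to 16820 CPM in WT veh and 3147 to 5557 in App veh, and to 4130 to 15380 CPM in WT BRICHOS and 4437 to 6038 in App BRICHOS. The neutrophil markers were at 34.2 to 427 CPM in the WT and at 12.0 to 35.3 CPM in the App libraries. The microglial sum was itself lower in App veh, with 21850 to 23300 CPM against 24620 to 27080 in WT veh. In such bulk samples fewer cells of a type and less RNA per cell cannot be told apart. The library of App BRICHOS mouse 2 stood apart in the heat-inducible chaperones, as described below, and the calls that were lost without it are named beside the results.

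Taken over all 12 libraries and per kilobase of exon, Hsp90ab1, the constitutive cytosolic Hsp90, had the highest level of the 79 genes with 430.7 CPM per kilobase. Hspa8, the constitutive cytosolic Hsp70 (Hsc70), followed with 334.5, then Hsp90b1 with 246.3 and Hspa5 with 238.0 CPM per kilobase. The heat-inducible Hspa1b and Hspa1a came next with 185.1 and 136.1 CPM per kilobase, above the inducible Hsp90aa1 with 93.58. Bag1, an exchange factor of Hsp70, led the Bag genes with 76.45, Dnajb1 (Hsp40) led the J-domain genes with 69.13, and Cct2 led the TRiC subunits with 61.87 CPM per kilobase. In the other families the highest levels were those of Hspd1 (39.73), the Hsp110 gene Hspa4 (33.6), Dnajc7 (33.21), Dnaja2 (29.42), the small heat shock gene Hspb1 (21.62) and Hspbp1 (13.5 CPM per kilobase). The 79 genes together took between 0.924% and 1.35% of a library's normalized counts, with the highest share in App BRICHOS mouse 2. Hspa1a and Hspa1b are neighbouring near-copies on chromosome 17 (34969190 to 34972156 and 34956436 to 34959238 in GRCm38, both on the minus strand), and 1350 of the 2868 windows of 100 bases in the Hspa1a transcript were found without a mismatch in Hspa1b, or 47.1%. How reads shared between them were divided is not known, and their separate values are uncertain.

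The promoters that carry the families' known stress elements are shown here because the heat-inducible and the endoplasmic reticulum genes went separate ways in the strain comparison below. Windows from 250 bases before to 50 after the start were taken from RefSeq (GRCm38.p6) for 66 of the 79 genes, some with several starts, and a gene was counted when any of its windows held a motif. Not matched were Bag4, Cct4, Dnajc11, Dnajc12, Dnajc18, Dnajc2, Dnajc30, Dnajc5, Hsp90aa1, Hsp90ab1, Hspa13, Hspa8 and Hspa9. A pair of heat shock units (GAANNTTC or TTCNNGAA, each of which reads the same on both strands) stood in 18 of the 66 genes, or 27.3%, against 17.0% of the 27025 genes with a window. It stood in 8 of the 9 matched heat-inducible genes (Bag3, Dnaja1, Dnajb4, Hspa1a, Hspa1b, Hspb1, Hspb8 and Hsph1) and in 1 of the 9 matched genes of the endoplasmic reticulum (Dnajc10). Overlapping pairs that make 3 alternating units in a row, the core of a heat shock element, stood in Dnajb6, Hspd1, Hspe1 and Hsph1, or 6.06% of members against 0.662% of all genes. The endoplasmic reticulum stress element (CCAAT, then any 9 bases, then CCACG, searched on both strands) stood in Dnajc3, Hsp90b1 and Hspa5, or 4.55% of members against 0.137% of all genes. Capitals mark the matched elements, and every sequence runs 5′ to 3′ on the strand of its gene. Hspa1a (chr17:34972107-34972406, minus strand) holds 1 pair, Hspb1 (chr5:135887669-135887968, plus strand) 2 pairs and Hspe1 (chr1:55087898-55088197, plus strand) a run of overlapping pairs that the divergent neighbour Hspd1 shares. Hspa5 (chr2:34771840-34772139, plus strand) holds 1 endoplasmic reticulum element and Hsp90b1 (chr10:86705395-86705694, minus strand) 2 of them on opposite strands.
Hspa1a: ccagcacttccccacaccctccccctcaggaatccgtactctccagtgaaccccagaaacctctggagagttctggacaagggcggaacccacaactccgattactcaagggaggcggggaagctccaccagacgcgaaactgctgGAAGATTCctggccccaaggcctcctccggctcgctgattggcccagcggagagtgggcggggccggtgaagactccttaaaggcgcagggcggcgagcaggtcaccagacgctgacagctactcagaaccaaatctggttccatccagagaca
Hspb1: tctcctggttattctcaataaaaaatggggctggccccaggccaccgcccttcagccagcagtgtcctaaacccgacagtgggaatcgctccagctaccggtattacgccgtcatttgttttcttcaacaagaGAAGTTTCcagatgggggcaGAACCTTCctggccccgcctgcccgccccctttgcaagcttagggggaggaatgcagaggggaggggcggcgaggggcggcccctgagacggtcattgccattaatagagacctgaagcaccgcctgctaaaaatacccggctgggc
Hspe1: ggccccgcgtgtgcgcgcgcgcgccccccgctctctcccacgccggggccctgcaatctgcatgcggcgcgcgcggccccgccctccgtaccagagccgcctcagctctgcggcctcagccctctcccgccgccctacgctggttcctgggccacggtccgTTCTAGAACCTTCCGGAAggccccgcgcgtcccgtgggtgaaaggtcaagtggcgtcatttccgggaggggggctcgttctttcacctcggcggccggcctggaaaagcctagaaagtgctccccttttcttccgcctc
Hspa5: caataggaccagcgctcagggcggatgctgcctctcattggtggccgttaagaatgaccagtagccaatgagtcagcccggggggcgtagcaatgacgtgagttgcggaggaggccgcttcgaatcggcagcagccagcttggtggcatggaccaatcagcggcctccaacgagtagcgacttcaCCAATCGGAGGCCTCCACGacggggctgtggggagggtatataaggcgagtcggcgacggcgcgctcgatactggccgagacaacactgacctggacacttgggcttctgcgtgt
Hsp90b1: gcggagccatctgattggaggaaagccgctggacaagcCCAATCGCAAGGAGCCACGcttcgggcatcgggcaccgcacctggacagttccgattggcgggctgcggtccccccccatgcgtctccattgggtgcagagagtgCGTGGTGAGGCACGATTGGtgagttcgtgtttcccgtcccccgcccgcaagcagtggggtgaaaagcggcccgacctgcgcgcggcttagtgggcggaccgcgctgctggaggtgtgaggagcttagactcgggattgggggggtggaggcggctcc
The window of Hspa1b equals that of Hspa1a at 296 of 300 positions, the heat shock pair included. A match of letters is a description of the sequence, and binding was not measured.

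To see how chaperone expression differs between the strains, App veh was first compared with WT veh. In App mice, chaperones of the endoplasmic reticulum and most TRiC subunits were higher, by 1.13- to 2.34-fold where called, and the heat-inducible Hspa1a and Dnajb1 were lower, by 2.47- and 2.18-fold. Of the 79 genes, 23 were higher and 8 were lower at an adjusted p-value under 0.05 (edgeR's quasi-likelihood test, Benjamini-Hochberg over 15425 genes). In all genes tested, 37.0% were called in this comparison, 20.1% as higher and 16.9% as lower, and the 39.2% of members called is near that background. The median log2 fold change was 0.05 over the members and -0.02 over all genes. The groups did not overlap, with every App veh mouse above every WT veh mouse, in 26 members (25.5% of all genes), and with every App veh mouse below in 17 (25.3% of all genes).

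Of the 10 chaperones of the endoplasmic reticulum, 8 were higher in App veh than in WT veh and none was lower, with a median log2 fold change of 0.29 over the list. Dnajb14, a J-domain protein of the reticulum membrane, was at 79.2, 79.8 and 76.1 CPM in the WT veh mice and at 173, 176 and 201 CPM in the App veh mice. The treated mice gave the same order, as the WT BRICHOS mice were at 76.5, 79.2 and 76.8 CPM and the App BRICHOS mice at 197, 171 and 210 CPM. Its log2 fold change was 1.23 ± 0.08 (SE, n = 3 per group, edgeR adjusted p = 3.25e-07). Dnajb14 (chr3:137867675-137916557 in GRCm38, plus strand) shares exons with Gm15460 on the same strand, and reads of the pair may have been split or left uncounted.

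The 2 most abundant chaperones of the reticulum moved by less. Hsp90b1 was at 849, 882 and 841 CPM in WT veh and at 1118, 1150 and 1116 CPM in App veh, a log2 fold change of 0.40 ± 0.05 (edgeR adjusted p = 0.000138). Hspa5 was at 899.9, 943 and 805 CPM in WT veh and at 1113, 1221 and 1013 CPM in App veh. All 3 App values lie above all 3 WT values, with a log2 fold change of 0.34 ± 0.10 (edgeR adjusted p = 0.0176). The Hsp70 relative Hspa13 was higher with 0.34. So were the J-domain proteins Dnajc1 (0.31), Dnajb11 (ERdj3, 0.26), Dnajc3 (p58IPK, an inhibitor of the kinase Perk, 0.24) and Dnajc10 (ERdj5, a reductase for misfolded proteins, 0.18), with adjusted p-values of edgeR's quasi-likelihood test between 0.00285 and 0.0204. Dnajb9, another J-domain gene induced by unfolded protein, had a log2 fold change of -0.17 (adjusted p = 0.289) and Dnajb12 one of -0.02 (adjusted p = 0.799).

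Among the TRiC subunits, 5 of the 7 tested members were higher in App veh and none was lower, with a median log2 fold change of 0.28. Tcp1 was at 97.0, 105 and 96.2 CPM in WT veh and at 138, 135 and 128 CPM in App veh. Its log2 fold change was 0.42 ± 0.07 (edgeR adjusted p = 0.000411). Cct2 was at 129, 142 and 138 CPM in WT veh and at 184, 182 and 168 CPM in App veh, with a log2 fold change of 0.39 ± 0.05 (edgeR adjusted p = 0.000179). Cct4 (0.30), Cct5 (0.28) and Cct7 (0.23) were also higher, and in all 5 no App veh mouse overlapped with a WT veh mouse. Cct3 had a log2 fold change of 0.01 (adjusted p = 0.88) and Cct8 one of 0.09 (adjusted p = 0.362). Cct6a, the subunit that completes the ring, is not annotated as protein-coding and stands outside the rule, with a log2 fold change of 0.03 (adjusted p = 0.677). The sum over the 7 members was 771 ± 32.5 CPM in WT veh and 924 ± 45.8 CPM in App veh (SD, n = 3).

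**Figure D1:**
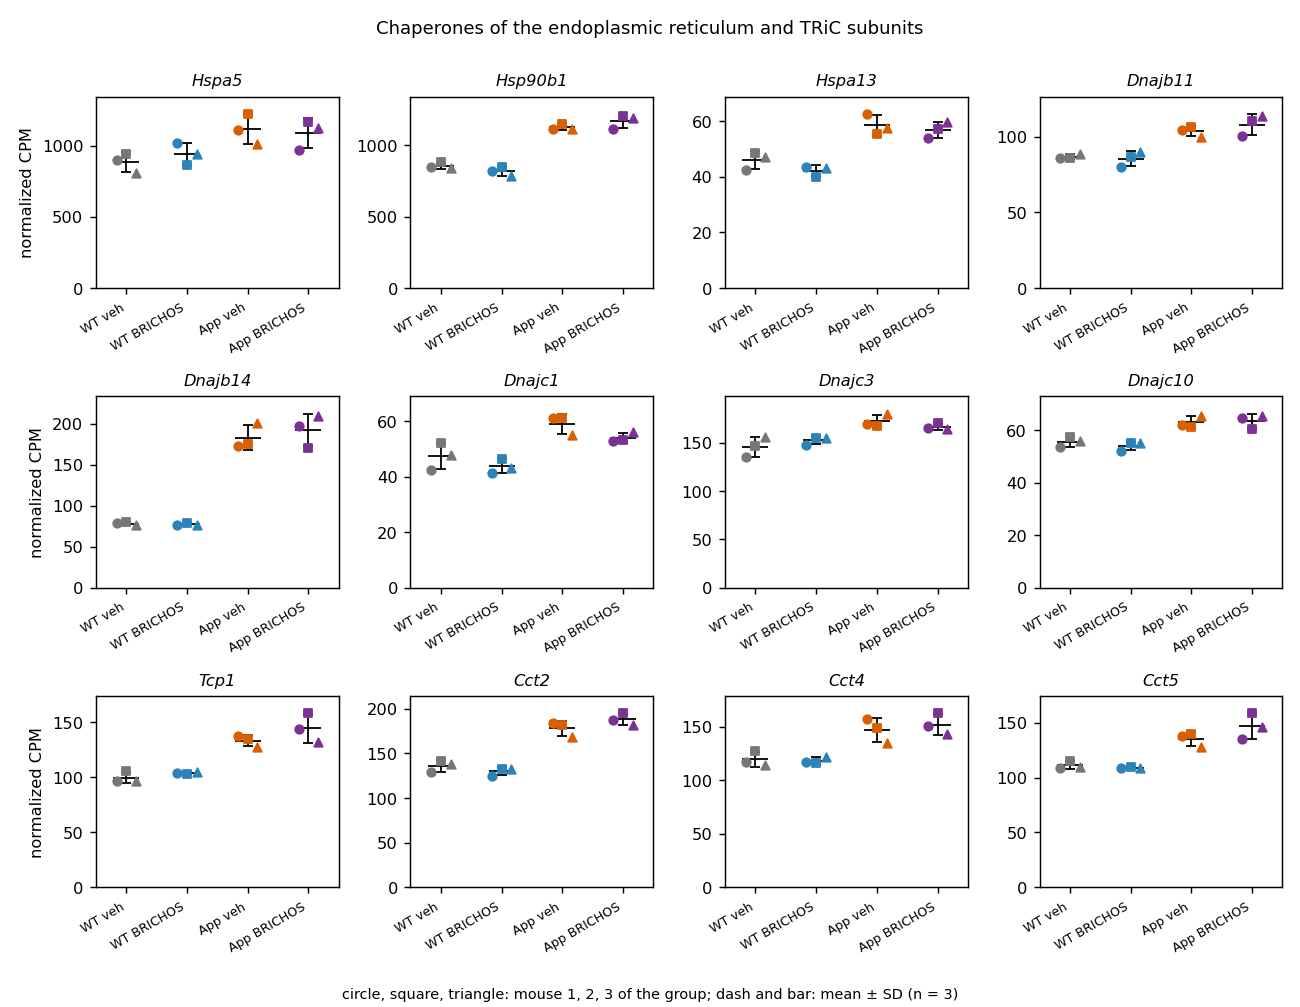
Normalized CPM (vertical axes, from 0) of the 8 chaperones of the endoplasmic reticulum called in App veh against WT veh and of the 4 TRiC subunits with the largest difference, for each mouse by group. Points are mice, and dashes with bars are the mean ± SD of 3 mice. Dnajb14 is at 76.1 to 79.8 CPM in the 6 WT mice and at 171 to 210 CPM in the 6 App mice.

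Of the 8 mitochondrial chaperones and co-chaperones, Hspa9 (mortalin, the mitochondrial Hsp70) was higher with a log2 fold change of 0.33 ± 0.06 (edgeR adjusted p = 0.00109). It was at 145 to 157 CPM in WT veh and at 183 to 202 CPM in App veh, without overlap. The other 7 were not called. The chaperonin genes Hspd1 (Hsp60) and Hspe1 (Hsp10), which share one divergent promoter, had log2 fold changes of 0.16 (adjusted p = 0.437) and 0.08 (adjusted p = 0.738).

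The heat-inducible cytosolic chaperones went the other way. The list holds Hspa1a, Hspa1b, Hspa8, Hsph1, Hsp90aa1, Hsp90ab1, Dnaja1, Dnajb1, Dnajb4, Hspb1, Hspb8 and Bag3. Hspa8 and Hsp90ab1 are mainly constitutive genes and stand in it as the partners of the inducible ones. Of the 12 genes 9 had a negative log2 fold change in App veh against WT veh, with a median of -0.54, and in 6 of them every App veh mouse was below every WT veh mouse. Without the constitutive pair 8 of 10 were negative, with a median of -0.63. Hspa1a was at 433, 545 and 413 CPM in WT veh and at 262, 186 and 114 CPM in App veh. Hspa1b was at 526, 678 and 540.1 CPM in WT veh and at 363, 237 and 125 CPM in App veh. Dnajb1, the J-domain partner of Hsp70 in refolding, was at 284, 366 and 235 CPM in WT veh and at 147, 142 and 118 CPM in App veh. In all 3 genes the groups were apart, and the App veh mice differed among themselves by more than 2-fold in Hspa1a and Hspa1b but not in Dnajb1.

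With all 12 libraries in the fit, Dnajb1 (log2 fold change -1.12 ± 0.27, edgeR adjusted p = 0.00742) and Hspa1a (-1.31 ± 0.47, edgeR adjusted p = 0.0476) passed the test. Hspa1b (-1.27 ± 0.50) did not (edgeR adjusted p = 0.0658), nor did Hspa1a and Hspa1b summed (-1.28, edgeR adjusted p = 0.0568), and DESeq2 with all libraries called Dnajb1 alone among the 12. The fit shares 1 estimate of the spread among the 4 groups, and the standard error of Hspa1a was 0.47 with App BRICHOS mouse 2 and 0.25 without it. Because that mouse was set apart by its high values of these same genes, a smaller spread without it follows from the choice. Without that mouse, which belongs to neither group compared, the log2 fold changes moved by less than 0.01 and 7 of the 12 were called lower, where 37.8% of all genes were called in either direction. These were Hspa1a (adjusted p = 0.00209), Hspa1b (adjusted p = 0.0075), Dnajb1 (adjusted p = 0.00033), Hsp90aa1 (adjusted p = 0.0151), Hsph1 (adjusted p = 0.0293), Hspb1 (adjusted p = 0.0381) and Dnaja1 (adjusted p = 0.0423), all from edgeR's quasi-likelihood test. Likewise 7 of the 12 were called lower with only the WT veh and App veh libraries in the fit, by edgeR and by DESeq2. DESeq2 then called 34.8% of all genes in either direction. For edgeR with only these groups this share was not determined, so its count has no background beside it.

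Hsp90aa1 was at 383, 415 and 314 CPM in WT veh and at 292, 260.1 and 204 CPM in App veh, a log2 fold change of -0.56 ± 0.33. Hspb1 (Hsp27), a small heat shock protein that holds unfolded chains, was at 21.9, 28.7 and 20.6 CPM in WT veh and at 12.4, 19.3 and 10.5 CPM in App veh (-0.75 ± 0.36). Hsph1 (Hsp110) was at 85.7, 109 and 64.5 CPM in WT veh and at 68.0, 48.1 and 43.1 CPM in App veh, where the groups overlap (-0.71 ± 0.41). The constitutive partners were not called. Hspa8 had a log2 fold change of 0.16 (adjusted p = 0.488) and Hsp90ab1 one of -0.03 (adjusted p = 0.871). Bag3, which links Hsp70 and small heat shock proteins to autophagy, had one of -0.18 (adjusted p = 0.635), and Dnajb4 one of 0.01 (adjusted p = 0.985). The 10 immediate early genes that respond to tissue digestion summed to 14960 to 18580 CPM in WT veh and 16080 to 21240 CPM in App veh. Of these 10 genes 5 were called higher and 1 lower in App veh, with a median log2 fold change of 0.45. The summed markers of oligodendrocytes, neurons and microglia were lower in every App veh than in every WT veh mouse. All 6 neutrophil markers were called lower, although their sums overlapped. Their part in the difference was not tested.

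**Figure D2:**
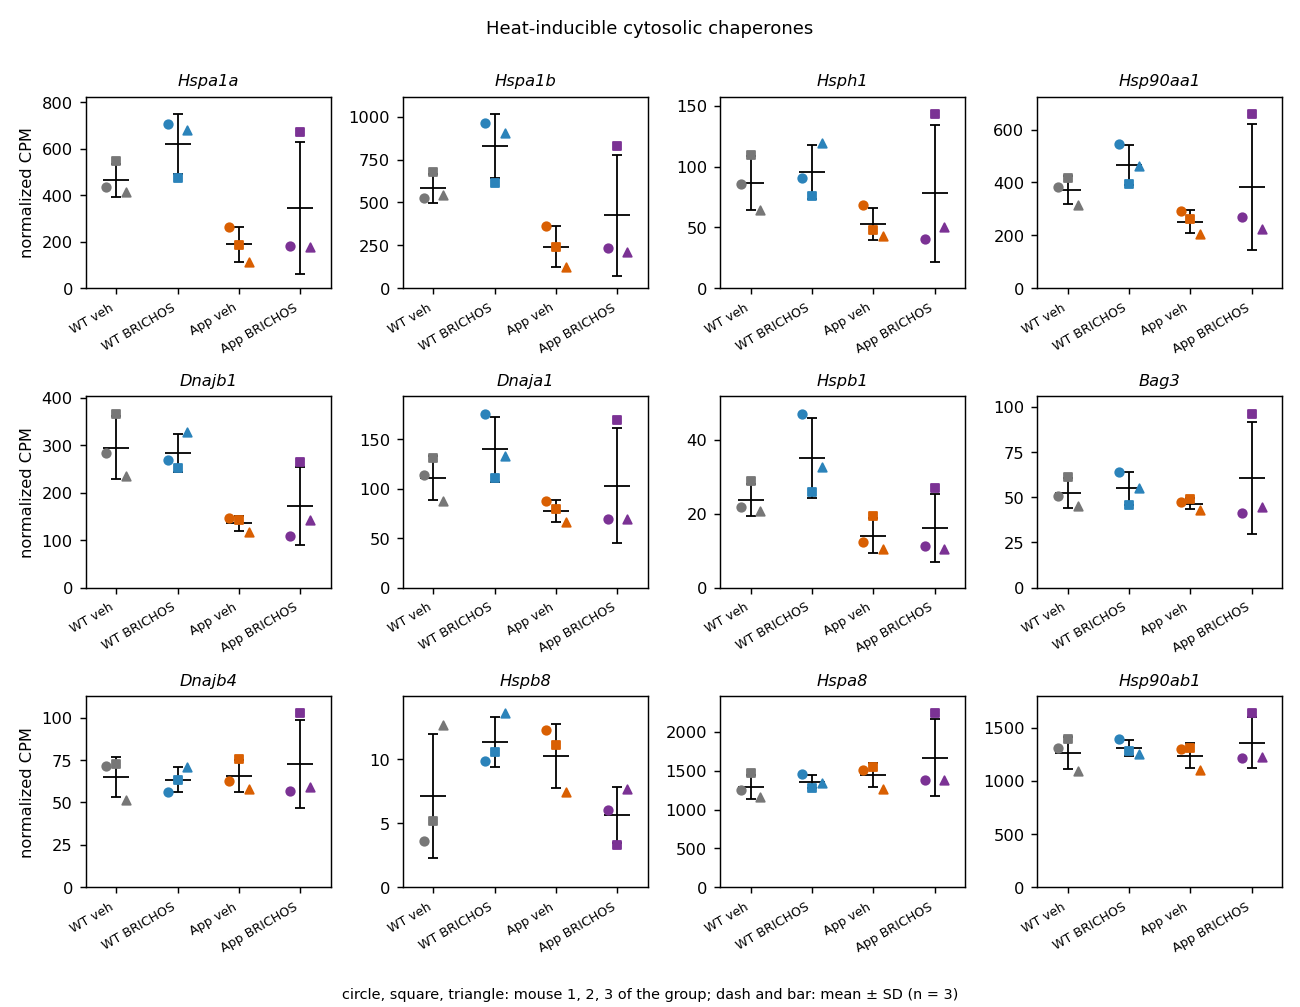
Normalized CPM (vertical axes, from 0) of the 12 genes of the heat-inducible list, the constitutive Hspa8 and Hsp90ab1 included, for each mouse by group. Points are mice, and dashes with bars are the mean ± SD of 3 mice. App BRICHOS mouse 2 (purple square) lies above the other mice of its group in every panel but Hspb8, and the other 5 App mice lie below all 6 WT mice in Hspa1a, Hspa1b, Hsp90aa1, Hspb1, Dnajb1 and, narrowly, Dnaja1.

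The remaining calls between App veh and WT veh were spread over the families. Bag1 was higher with 78.7, 88.8 and 79.5 CPM in WT veh and 108, 120.0 and 121 CPM in App veh (log2 fold change 0.50 ± 0.08, edgeR adjusted p = 0.000563), and Bag4, a silencer of death receptors, was lower with -0.48 (adjusted p = 0.00833). Hspa12a, a distant relative of Hsp70, was at 17.3 to 21.2 CPM in WT veh and at 38.6 to 41.4 CPM in App veh (1.03 ± 0.18, edgeR adjusted p = 0.000994). Hspb7, a small heat shock protein best known from heart muscle, had the largest log2 fold change of all members (2.84, adjusted p = 0.00858) at very low levels. Its counts were 1, 3 and 2 in WT veh and 12, 12 and 20 in App veh, a ratio of 7.45 with a 95% interval of 3.16 to 21.4 for counting error only. Hspb7 reached 10 counts in 6 libraries, all of App mice, and so met the rule only through the strain where it is high. Its place as the largest change follows in part from that rule.

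Hspb11, which despite its name is a subunit of the intraflagellar transport complex, was higher (0.69), as were Hspbp1, an exchange factor of Hsp70 (0.40), Hspa4l of the Hsp110 group (0.42) and Dnajc13, a J-domain protein of endosomes (0.26). Hspb6 (Hsp20) was at 2.97 to 3.88 CPM in WT veh and at 4.46 to 5.76 CPM in App veh (0.66, adjusted p = 0.0237), and Hspb3 was higher too (0.41, adjusted p = 0.0202). Lower were Dnajc28 (-0.54), Dnajb5 (-0.44), Dnajc24, a gene of diphthamide synthesis (-0.35), the ribosome-bound Dnajc2 (-0.21) and Dnajc7, a cochaperone shared by Hsp70 and Hsp90 (-0.19), with edgeR adjusted p-values between 0.0161 and 0.0466. The astrocyte markers were higher in all App veh than in all WT veh libraries, and their part in the low-level differences of Hspb6, Hspb7 and Hspa4l was not tested.

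The same question was asked in the mice treated with rh Bri2 BRICHOS R221E, which are other animals than those above. Again 23 members were higher and 8 lower in App than in WT mice, where 42.5% of all genes were called, 20.8% as higher and 21.8% as lower. The median log2 fold change was 0.11 over the members and -0.04 over all genes. Every App mouse was above every WT mouse in 29 members (25.3% of all genes) and below in 7 (26.4% of all genes). Of the 79 members, 18 were called higher in both treatments, 4 (Bag4, Dnajb5, Dnajc28 and Dnajc7) were called lower in both, and 67 had the same sign, or 84.8% against 78.7% of all genes. The 2 comparisons share no mouse, but they share the fit and its estimate of the spread. Of the repeated lower calls that of Dnajb5 was kept in all alternatives under BRICHOS and lost in 2 of 15 under veh. Under BRICHOS the call of Dnajc28 was lost in 10 of 14 alternatives, that of Bag4 in 7 of 14 and that of Dnajc7 in 4 of 14, and under veh Dnajc7 was lost in 6 of 15 and Dnajc28 in 2 of 15. Without App BRICHOS mouse 2, 10 of the 31 calls under BRICHOS were lost, those of Bag6, Dnajb6, Dnajc12, Dnajc2, Hspa4 and Hspb11 among the higher and those of Bag4, Dnajb13, Dnajc28 and Dnajc6 among the lower members. They kept their sign, with edgeR adjusted p-values between 0.0585 and 0.184.

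Dnajb14 was again higher (1.31 ± 0.08, edgeR adjusted p = 1.78e-07). Hsp90b1 was at 823, 849.5 and 782 CPM in WT BRICHOS and at 1113, 1205 and 1189 CPM in App BRICHOS (0.52 ± 0.05, edgeR adjusted p = 1.62e-05). Of the 10 genes of the reticulum 6 were called, and Hspa5 (0.21, adjusted p = 0.105) and Dnajc3 (0.12, adjusted p = 0.0932) were not. The same 5 TRiC subunits passed, with log2 fold changes from 0.27 for Cct7 to 0.53 for Cct2, and Hspa9 passed with 0.40 (adjusted p = 0.000255). Called higher in this comparison and not called under veh were Bag6, which escorts tail-anchored proteins (0.20), Hspa4 of the Hsp110 group (0.16), Dnajb6, a suppressor of amyloid-like aggregation (0.32), and Dnajc12 (0.68). None of these 4 calls held without App BRICHOS mouse 2, where the log2 fold changes were 0.16 for Bag6, 0.10 for Hspa4, 0.22 for Dnajb6 and 0.47 for Dnajc12. The call of Hspa4 was lost in 9 of 14 alternatives. None of the 4 passed in the interaction, which does not show that they were alike in both treatments.

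Of the 12 heat-inducible genes, whose median log2 fold change was -0.37 here and -0.58 without the constitutive Hspa8 and Hsp90ab1, Hspb1 alone passed with all mice in edgeR (-1.11 ± 0.36, edgeR adjusted p = 0.0257). It was at 47.0, 25.8 and 32.6 CPM in WT BRICHOS and at 11.2, 26.8 and 10.5 CPM in App BRICHOS, where the high App value is that of mouse 2. Its call was lost with App BRICHOS mouse 1, App BRICHOS mouse 3 or WT BRICHOS mouse 1 left out and when the fit held the compared groups alone. Hspb8 (-1.01 ± 0.42, edgeR adjusted p = 0.0717) was below in every App mouse and was called by DESeq2 (adjusted p = 0.0379). The choroid plexus markers moved with Hspb8, at 3271 to 6796 CPM in WT BRICHOS and 648 to 978 CPM in App BRICHOS with all 6 called lower, and their part was not tested. The log2 fold changes of Hspa1a (-0.85), Hspa1b (-0.96), Dnajb1 (-0.72), Dnaja1 (-0.44), Hsph1 (-0.29) and Hsp90aa1 (-0.28) had adjusted p-values between 0.0502 and 0.588. Those of Hspa8 (0.29), Bag3 (0.14), Hsp90ab1 (0.05), Hspd1 (0.21) and Hspe1 (0.02) had adjusted p-values of at least 0.19. App BRICHOS mouse 2 was set apart by its high values of these same genes, so lower values and more lower calls without it follow in part from that choice. Without this mouse the median log2 fold change of the list was -0.97 and 7 of the 12 were called lower, where 34.5% of all genes were called in either direction. They were the same 7 genes as under veh without this mouse, among them Hspa1a (-1.79 ± 0.30), Hspa1b (-1.90 ± 0.36) and Hspb1 (-1.69 ± 0.30), with edgeR adjusted p-values of 0.000874, 0.00212 and 0.00138. The count of members called lower was then 12 in place of 8, and that of members called higher 18 in place of 23.

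Lower in App BRICHOS than in WT BRICHOS were also 3 genes known best from other cells. Dnajb13, a protein of the ciliary radial spoke, was at 1.20, 1.35 and 2.06 CPM in WT BRICHOS and at 0.194, 0.512 and 0.755 CPM in App BRICHOS (-1.67, adjusted p = 0.0304). In summed counts these were 79 and 21, a ratio of 0.306 with a 95% interval of 0.18 to 0.501 for counting error only. The 6 ependymal markers summed to 24.8 to 44.8 CPM in WT BRICHOS and to 6.59 to 9.74 CPM in App BRICHOS. Hspa12b, an Hsp70 relative described in endothelial cells, was at 18.1, 11.6 and 11.0 CPM against 5.62, 4.86 and 4.68 CPM (-1.42, adjusted p = 0.00131), while the endothelial markers summed to 439 to 640 and 341 to 397 CPM. The largest part of that sum is Flt1, at 178 to 269 and 229 to 284 CPM. Of the 6 endothelial markers 5 were called lower, with a median log2 fold change of -1.32 over the 6. Dnajc6 (auxilin), which uncoats clathrin vesicles in neurons, was at 21.98, 11.7 and 7.73 CPM against 9.04, 2.62 and 5.89 CPM (-1.24, adjusted p = 0.0451), while the neuronal markers summed to 15.7 to 25.4 and 4.83 to 6.52 CPM. Over WT BRICHOS mice 1, 2 and 3 the neuronal sums rose (15.7, 21.1 and 25.4 CPM) where Dnajc6 fell. The oligodendrocyte markers summed to 15380, 6715 and 4130 CPM in these mice and to 6038, 5268 and 4437 CPM in App BRICHOS. None of the 6 oligodendrocyte markers was called in this comparison. The part of these cells in the 3 differences was not tested. Without App BRICHOS mouse 2 the call of Hspa12b held, and those of Dnajb13 (-1.71, adjusted p = 0.0721) and Dnajc6 (-0.88, adjusted p = 0.138) did not.

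**Figure D3:**
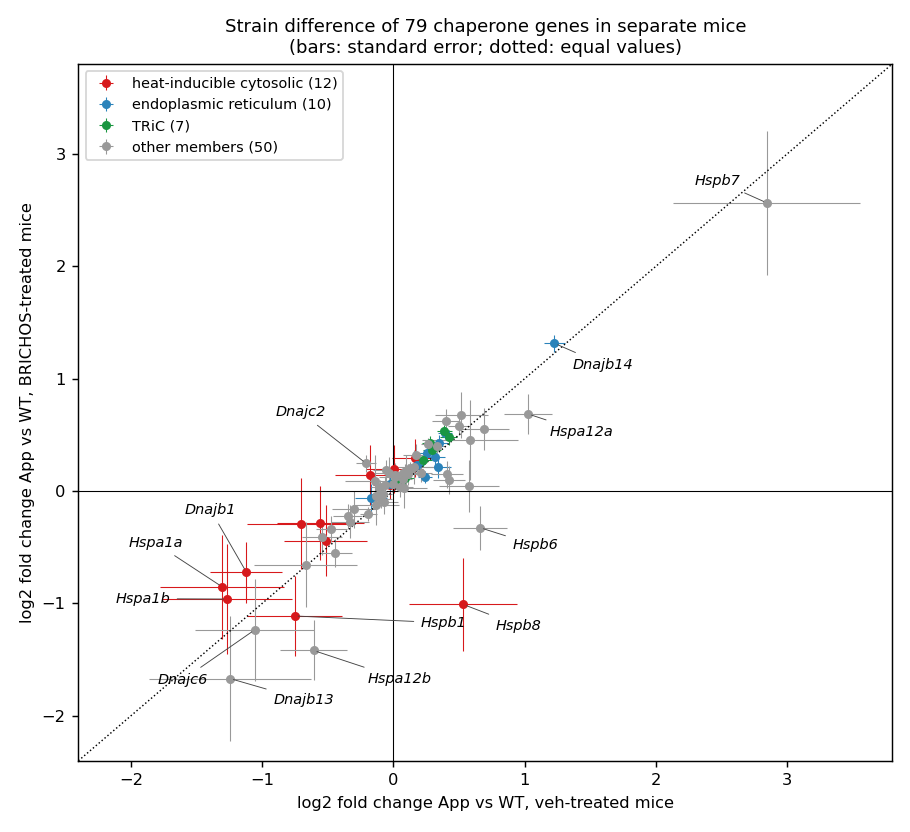
Log2 fold change of each of the 79 genes in App against WT mice, in veh-treated mice (horizontal axis) and in BRICHOS-treated mice (vertical axis), with standard errors as bars and equal values as the dotted line. Colours mark the heat-inducible, endoplasmic reticulum and TRiC lists, whose members lie below 0 in most cases, above 0 in most cases and above 0 in all cases on both axes. Dnajc2 lies on opposite sides of 0 with a call in each.

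The effect of the treatment in App mice was asked by comparing App BRICHOS with App veh. No member was called, and 1 of all 15425 genes was, or 0.00648%. At an unadjusted p-value under 0.05, Dnajc2 was higher (log2 fold change 0.31 ± 0.07, edgeR adjusted p = 0.291) and Hspa12b lower (-0.77 ± 0.27, edgeR adjusted p = 0.345), or 2 of 79 members against 10.8% of all genes (3.18% higher and 7.67% lower). Without overlap 6 members were higher and 1 was lower, against 6.37% and 7.09% of all genes. DESeq2 with all libraries called none of the members either, with 3 at an unadjusted p-value under 0.05. The log2 fold changes of the members were between -0.87 and 0.87, with a median of 0.07 and a median standard error of 0.105, and 57 of the 79 were smaller than 0.2 in size. Hsp90b1 (0.05 ± 0.05), Hspa5 (-0.04 ± 0.10), Cct2 (0.08 ± 0.05) and Hspa9 (0.03 ± 0.06) were among them. Dnajc8 (0.11), Hspb8 (-0.87) and Cct5 (0.12) followed in order of the p-value, with adjusted p-values from 0.48 to 0.517. The chaperonins Hspd1 (0.26) and Hspe1 (0.27) were not called either, and mouse 2 had the highest value of its group in both.

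Within App BRICHOS the heat-inducible genes were high in 1 mouse. In mouse 2, 12 of the 79 members, or 15.2%, were over 1.5 times as high as in both other mice of the group, among them 10 of the 12 genes of the heat-inducible list and 9 of the 10 without Hspa8 and Hsp90ab1, against 3.5% of all genes. In the other 11 libraries between 0 and 3 members stood out in this way from their group. Hspa1a was at 179, 673 and 179 CPM in App BRICHOS mice 1, 2 and 3, and Hspa1b at 236, 831 and 208 CPM. Hsph1 was at 40.4, 143 and 50.6 CPM, Hsp90aa1 at 267, 658 and 223 CPM and Dnajb1 at 110, 264 and 142 CPM. Bag3 was at 41.3, 96.2 and 44.5 CPM. Hspa8, which is counted among the 10 although constitutive, was higher in mouse 2, with 2237 CPM against 1379 and 1376 CPM, as was Hspd1 with 159.9 CPM against 107 and 99.0 CPM. Hsp90b1 and Hspa5 of the reticulum were not among the 12, with 1205 and 1168 CPM in mouse 2 and 969.8 to 1189 CPM over both genes in the other mice.

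The immediate early genes summed to 19830 CPM in mouse 2 and to 18390 and 20810 CPM in the other mice of its group, and the microglial markers to 23580 CPM in mouse 2 and to 22790 and 24290 CPM in the others. The astrocyte markers were at 641 CPM in mouse 2 and at 1851 and 1218 CPM in the others. Of 58 other chaperone-pathway genes, 1 (Herpud1, a gene of the unfolded protein response) was over 1.5 times as high as in both other mice. With mouse 2, 11 of the 12 heat-inducible genes had a positive log2 fold change for the treatment, with a median of 0.36, as for Hspa1a (0.87 ± 0.47, edgeR adjusted p = 0.553). Without it none of the 12 was positive, the median was -0.11 and the lowest adjusted p-value of edgeR's test was 0.81. Mouse 2 was set apart by its high values of most of these same genes, so lower values without it follow in part from that choice. The sign of the treatment effect on these genes in App mice thus rests on that mouse, and the cause of its levels was not tested.

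**Figure D4:**
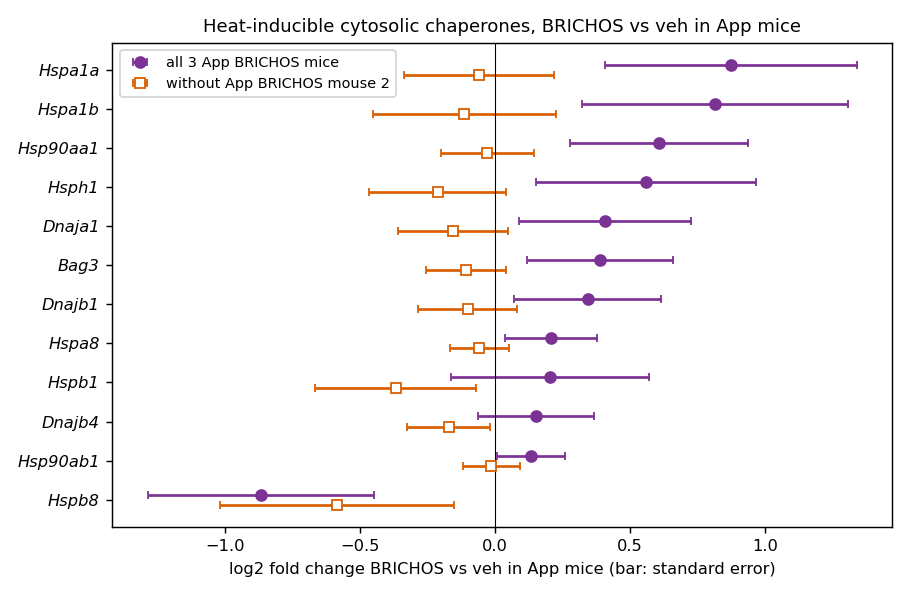
Log2 fold change (horizontal axis) of the 12 genes of the heat-inducible list, the constitutive Hspa8 and Hsp90ab1 included, in App BRICHOS against App veh, with all 3 App BRICHOS mice (filled circles) and without mouse 2 (open squares), with standard errors as bars. With all mice 11 of 12 values are positive, and without mouse 2 all 12 are negative. Mouse 2 was set apart by its high values of most of these genes, so lower values without it follow in part from that choice.

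In WT mice no member and none of the 15425 genes was called for the treatment, a share of 0.0%. At an unadjusted p-value under 0.05 there were 3 members, all higher, against 11.4% of all genes (6.55% higher). Without overlap 3 members were higher and 2 lower, against 8.36% and 9.19% of all genes. The small heat shock gene Hspb6 was at 3.22, 2.97 and 3.88 CPM in WT veh and at 5.17, 5.01 and 6.47 CPM in WT BRICHOS, without overlap (log2 fold change 0.73 ± 0.20, edgeR adjusted p = 0.243). The others were Hspa12a (0.44 ± 0.18, edgeR adjusted p = 0.399) and Hspb3 (0.27 ± 0.12, edgeR adjusted p = 0.437), and Dnajc14 (-0.14) and Dnajc18 (-0.12) followed in order of the p-value. DESeq2 with all libraries called no member, with 2 at an unadjusted p-value under 0.05. All 5 small heat shock genes had a positive log2 fold change, with a median of 0.56, and their sum was 40.7 ± 4.90 CPM in WT veh and 59.8 ± 9.46 CPM in WT BRICHOS (SD, n = 3), of which Hspb1 makes the larger part. Summed ependymal markers were higher in every WT BRICHOS mouse as well, with 24.8 to 44.8 against 11.9 to 18.5 CPM. So were those of mural cells (239 to 313 against 198 to 223 CPM) and border macrophages (516 to 630 against 390 to 460 CPM). The choroid plexus sums overlapped, with 3271 to 6796 against 863 to 3950 CPM. The microglial sums were lower in every WT BRICHOS mouse, with 23320 to 24510 against 24620 to 27080 CPM. No marker of these lists was called, and the part of these cells was not tested. Of the heat-inducible genes 10 of 12 were positive, as for Hspa1a (0.42 ± 0.46) and Hspa1b (0.51 ± 0.49), with no adjusted p-value below 0.573. Over all members the median was 0.00 and 63 of 79 log2 fold changes were smaller than 0.2 in size.

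The difference between both treatment effects was tested as an interaction. No member was called, and 1 of all genes was, or 0.00648%. Dnajc2, a J-domain protein that sits on the ribosome with Hspa14, came closest with 0.45 ± 0.11 (edgeR adjusted p = 0.156). It was at 32.9, 34.9 and 36.5 CPM in WT veh, at 29.7, 33.0 and 31.9 CPM in WT BRICHOS, at 29.2, 29.8 and 31.3 CPM in App veh and at 35.6, 41.0 and 35.6 CPM in App BRICHOS. The App veh mice were below all WT veh mice and the App BRICHOS mice above all WT BRICHOS mice, which gave calls of opposite direction in the 2 strain comparisons (-0.21, adjusted p = 0.0466, and 0.25, adjusted p = 0.0198). For Dnajc2 DESeq2 with all libraries called the interaction (adjusted p = 0.0448), without App BRICHOS mouse 2 edgeR gave 0.39 (adjusted p = 0.253), and over 18 alternatives the adjusted p-value was between 0.0448 and 0.342. Its call under veh was lost in 9 of 15 alternatives, among them the omission of any App veh mouse, and its call under BRICHOS in 4 of 14.

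Also under an unadjusted p-value of 0.05 in the interaction were Hspb6 (-0.99 ± 0.28, edgeR adjusted p = 0.184), Hspb8, the partner of Bag3 (-1.54 ± 0.59, edgeR adjusted p = 0.262), and Hspa12b (-0.81 ± 0.37, edgeR adjusted p = 0.338). Dnajc13 followed with 0.16 (adjusted p = 0.35). Together with Dnajc2 these are 4 of 79 members, against 14.8% of all genes (5.23% higher and 9.54% lower). Hspb8 was at 3.63, 5.16 and 12.7 CPM in WT veh, at 9.83, 10.6 and 13.6 CPM in WT BRICHOS, at 12.2, 11.1 and 7.41 CPM in App veh and at 6.004, 3.33 and 7.63 CPM in App BRICHOS. In Hspb8 the WT veh mice thus spanned 3.63 to 12.7 CPM, and mouse 3 with the high value also had the highest choroid plexus markers of its group, with 3950 CPM against 908 and 863 CPM. In WT BRICHOS and App BRICHOS mouse 3 was likewise highest in both. In App veh mouse 3 had the highest of these markers, with 1980 CPM against 1058 and 643 CPM, but the lowest Hspb8. The part of the choroid plexus in Hspb8 was not tested.

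Genes that work with these chaperones but lie outside the rule were looked at as a list of 58, of which 56 were tested. In App veh against WT veh 25 were higher and 3 lower, and in the BRICHOS-treated mice 25 were higher and 4 lower. Over all genes tested these shares were 20.1% and 16.9% under veh and 20.8% and 21.8% under BRICHOS. Exchange factors and folding enzymes of the endoplasmic reticulum and mitochondria made up 10 of the higher genes in each comparison, out of 13. Among them were Sdf2l1, a partner of Dnajb11 (log2 fold change 1.49 under veh), Sil1, the exchange factor of Hspa5 (1.05), and the lectin chaperone Calr (0.67), all with adjusted p-values of at most 6.88e-06. Of the prefoldin subunits, which hand actin and tubulin to TRiC, Pfdn1, Pfdn5 and Pfdn6 were higher, with 0.41, 0.56 and 0.33. Trap1, the mitochondrial Hsp90, was higher with 0.44. Of the 17 Hsp90 co-chaperones 3 were higher and 3 lower under veh, and of 8 genes of the unfolded protein response 1 was higher. Hsf1 was at 50.3 to 50.7 CPM in WT veh and at 43.5 to 48.1 CPM in App veh (-0.13, adjusted p = 0.164). Hsf4, a relative of Hsf1 known from the lens, was higher (1.37, adjusted p = 0.000907) at 0.894 to 1.64 and 2.82 to 3.56 CPM. In the treatment comparisons and the interaction none of the 56 was called, with 6, 7 and 4 at an unadjusted p-value under 0.05 for BRICHOS in App mice, in WT mice and in the interaction, where all genes had shares of 10.8%, 11.4% and 14.8%.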

How the data were processed

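RNA-sequencing libraries of CD11b-positive cortical cells from 12 mice were analysed, 3 in each of the 4 groups, which were taken from the library names. According to the study's methods and the labels, the authors trimmed reads with Cutadapt, aligned them to GRCm38 with STAR and counted them per gene with featureCounts 1.5.1, and they deposited raw counts without normalization. The kit was stranded (Illumina Stranded mRNA Prep). The strand setting of the counting and its handling of reads shared between genes are not given in the sources used here, so that values of close copies and of genes with overlapping exons are uncertain. Equally grouped libraries differed by more than counting noise (chi-square per degree of freedom of 5.81 to 34.1), and all 12 were kept.

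Symbols, gene types and positions came from the GENCODE M21 annotation of GRCm38. Genes kept by filterByExpr with a minimum count of 10 were fitted in edgeR 4.0.16 (R 4.3.3) with TMM factors and a mean per group, without a replicate block, and compared by its quasi-likelihood F test. P-values were adjusted after Benjamini and Hochberg across every gene tested, and 0.05 was the threshold. Levels are CPM with TMM factors, given as mean ± SD, and fold changes carry a standard error. DESeq2 1.42.0, other filters and scalings, a replicate block and the omission of each library were the alternatives, and the fit without App BRICHOS mouse 2 for comparisons it is not in, and the heat-inducible list without Hspa8 and Hsp90ab1, were added after seeing the data. Tests were tried on simulated counts. Tables and plots were made in Python 3.11.15.

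The members and all lists were chosen with earlier results of these data known. Named were the stress-inducible and constitutive core with TRiC, the 8 called members with the largest log2 fold change in each direction under veh, the 5 members with the lowest p-value in each other comparison, and the leading member of each family. Dnajb9, Dnajb12, Dnajc12, Bag6, Dnajb6, Dnajc6 and the remaining called members were named after their values were seen, to complete their lists. Protein sequences were not used here.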

Additional observations from a re-analysis of the deposited data

How the results depend on the processing

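All calls kept their direction in every alternative. Of the 31 members called in each strain comparison, 19 stayed called in all alternatives other than a cutoff on fold size. That cutoff of 1 on the absolute log2 fold change left 3 higher and 2 lower members under veh, and 2 higher and 4 lower under BRICHOS. When the other groups were left out, edgeR called 14 members lower under veh and 5 under BRICHOS, and DESeq2 called 5 lower under BRICHOS. DESeq2 then called 34.8% of all genes under veh and 34.7% under BRICHOS in either direction. For edgeR with only the compared groups this share was not determined, so its counts have no background beside them. Without App BRICHOS mouse 2 in the fit, 13 were lower under veh, where 37.8% of all genes were called in either direction. DESeq2 with all libraries called 1 member higher in the interaction, Dnajc2, and 1.58% of all genes in either direction. Leaving out each library of the compared groups in turn, the members called lower numbered 3 to 6 under veh and 4 to 12 under BRICHOS, and those called higher 18 to 24 in both. Without App BRICHOS mouse 2, 34.5% of all genes were called under BRICHOS in either direction. For the other omissions this share was not determined. The lower counts moved by over 1.5 times without App veh mouse 2 (5), App veh mouse 3 (4), WT veh mouse 2 (3) or WT veh mouse 3 (4), and without App BRICHOS mouse 1 (4), App BRICHOS mouse 3 (5), WT BRICHOS mouse 2 (4) or WT BRICHOS mouse 3 (4). Calls lost most often were, under veh, those of Dnajc2 (9 of 15 alternatives), Hspa1a (7 of 16), Dnajc7 and Hspb3 (6 of 15 each), and, under BRICHOS, those of Dnajc28 (10 of 14), Hspa4 (9 of 14), Bag4 and Hspb11 (7 of 14 each). In App mice the log2 fold change for BRICHOS turned with mouse 2 left out, and over the omitted libraries it was -0.10 to 0.58 for Dnajb1, -0.030 to 0.88 for Hsp90aa1, -0.060 to 1.23 for Hspa1a, -0.11 to 1.26 for Hspa1b and -0.21 to 0.87 for Hsph1. That mouse was set apart by its high values of these same genes, so the turn follows in part from that choice. With the replicate number as a block, 24 members were higher and 9 lower under veh, 23 and 9 under BRICHOS, and 0 in the treatment comparisons and the interaction. Of all genes 38.8% were then called under veh and 44.2% under BRICHOS in either direction. In both treatment comparisons this share was 0.0%, and in the interaction 0.00648%. The labels do not say that equally numbered mice shared handling. The correlation of their deviations from the group means was between -0.0148 and 0.227 and not above 0.1 in every pair. In App veh against WT veh, 5 of 6 libraries correlated best with the library of their own number in the other group. The same held for 5 of 6 in WT BRICHOS against WT veh and for 3 of 6 in each comparison with App BRICHOS. Whether a number stands for shared handling is thus not known. DESeq2's size factors moved the median of all genes by at most 0.0195. With 3 mice per group and a median standard error of 0.105 to 0.15 on the log2 scale, and of up to 0.981 for single low-level members, smaller differences were not detectable at this depth and number of mice.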
